A study of Mus musculus with 6 samples.

Results

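Activity-regulated immediate early genes are the 10 genes Npas4, Rgs2, Nr4a1, Nr4a2, Nr4a3, Fos, Fosb, Junb, Egr1 and Gadd45b. They were taken by symbol from a table of raw read counts with 55401 gene identifiers, and all 10 were found. They were compared in pancreatic islets, in 3 libraries labelled KO and 3 labelled control. They were selected on the counts of these same 6 libraries, as genes known to be induced by calcium and depolarization whose KO and control values had already been seen. Their fold changes are therefore given as a description and support no claim of their own.

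Immediate early genes are transcribed within minutes of a stimulus, without new protein synthesis, and their transcripts are short-lived. In beta cells, glucose closes ATP-sensitive potassium channels, the membrane depolarizes and calcium enters. Calcium, cyclic AMP and MAP kinases then act through the factors CREB, which binds the cyclic AMP response element, and SRF, which binds the CArG box in front of genes such as Fos and Egr1. Tissue handling also induces several of them.

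The KO animals were Pdgfra fl/fl Pdx1-Cre+ male mice on C57BL/6, aged about 20 weeks. The control animals were Pdgfra fl/fl Pdx1-Cre- males of the same strain and age, so both groups carried the floxed receptor gene. Pdx1 is a transcription factor of the pancreatic lineage, and its promoter drives Cre in that lineage and not in beta cells alone. No group with Cre and an unfloxed receptor gene was analysed here, so an effect of Cre and one of the deletion cannot be told apart. The labels give islet as tissue and beta cell as cell type, and name no sorting step.

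The KO libraries held 18247741 to 25039394 counts and the controls 15026094 to 25299689. Pdgfra, the targeted gene, had 93, 25 and 125 counts in KO 1, 2 and 3, against 42, 88 and 116 in controls 1, 2 and 3 (log2 fold change -0.26, SE 0.34), so its counts gave no check of the labels. Beta-cell markers were present, with 10 of 10 passing the count filter. They took 10.7 to 13.0% of counts in KO and 7.99 to 15.1% in controls. Acinar markers took 13.9 to 25.0% in KO and 18.1 to 32.1% in controls, more than the beta-cell markers in every library. The material was thus islet tissue with much exocrine RNA, and the levels are not those of beta cells alone. A ribosomal RNA locus, CT010467.1, took 5.36, 12.6 and 18.5% of counts in KO 1, 2 and 3, against 4.39, 3.32 and 4.51% in controls (exact two-sided permutation p = 0.1, the smallest that 3 against 3 allows). KO 2 stood apart by its stromal and vascular genes, with summed levels of 44.7 CPM for the 7 fibroblast markers and 227 CPM for the 7 endothelial markers, where the other libraries had at least 144.5 and at least 330.5. CPM is a gene's count scaled to the size of its library, here corrected by TMM factors.

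The stretches printed here come from the 250 bases before the RefSeq start of genes whose values carry the comparison. Npas4, Rgs2, Gadd45b and Nr4a1 are shown because their KO and control levels did not overlap, and Fos because its levels did. For Npas4 the stretch runs from 194 to 165 bases before the start, and its whole window lies in an annotated exon of the gene. These 30 bases were picked because they hold the 2 TGACG cores of the window, so the density of cores there comes from the choice. The Nr4a1 stretch lies inside the annotated span of the gene, 101254269 to 101274795, so it precedes an internal start and not the whole gene. Sequences are from RefSeq (GRCm38.p6), 5′ to 3′ on the gene's strand, with bases of annotated exons left out except for Npas4. Capitals mark the core of the cyclic AMP response element, TGACG, on either strand, and the TATA box, TATAAA, on either strand. The positions are chr19:4990136-4990165 (minus strand) for Npas4, chr1:144004162-144004399 (minus) for Rgs2, chr10:80929841-80930072 (plus) for Gadd45b, chr12:85473640-85473889 (plus) for Fos and chr15:101266596-101266845 (plus) for Nr4a1.
Npas4: ccctctcccgttcgaCGTCAcgggaTGACG
Rgs2: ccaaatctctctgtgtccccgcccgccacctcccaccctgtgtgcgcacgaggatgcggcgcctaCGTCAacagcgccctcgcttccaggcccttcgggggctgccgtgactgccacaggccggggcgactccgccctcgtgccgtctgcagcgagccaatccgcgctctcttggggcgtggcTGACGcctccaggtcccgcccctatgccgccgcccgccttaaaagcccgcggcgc
Gadd45b: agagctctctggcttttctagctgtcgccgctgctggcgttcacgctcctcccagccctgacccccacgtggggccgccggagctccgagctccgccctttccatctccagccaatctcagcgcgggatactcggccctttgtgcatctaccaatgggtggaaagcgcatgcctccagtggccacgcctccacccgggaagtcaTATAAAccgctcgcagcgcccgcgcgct
Fos: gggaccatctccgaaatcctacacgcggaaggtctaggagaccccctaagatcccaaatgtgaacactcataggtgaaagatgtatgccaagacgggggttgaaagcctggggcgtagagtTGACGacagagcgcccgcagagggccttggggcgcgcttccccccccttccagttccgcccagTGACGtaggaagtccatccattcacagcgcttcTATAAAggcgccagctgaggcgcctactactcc
Nr4a1: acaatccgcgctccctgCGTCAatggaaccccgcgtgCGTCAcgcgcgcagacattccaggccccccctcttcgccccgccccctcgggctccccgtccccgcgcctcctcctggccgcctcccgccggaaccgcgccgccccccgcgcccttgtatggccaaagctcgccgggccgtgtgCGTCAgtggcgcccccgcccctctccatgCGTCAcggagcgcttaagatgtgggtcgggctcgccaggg

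A RefSeq window was at hand for 9 of the 10 genes, the exception being Egr1. In the 250 bases before the start, 8 of the 9 held at least 1 TGACG core and 6 held at least 2. Of all 32851 windows of that length, 17.8% held 1 or more and 3.90% held at least 2. Among the 10574 windows with a GC content of at least 58.4%, the lowest among the 9, the shares were 26.7% and 7.28%. Nr4a1, Nr4a2 and Nr4a3 each held 4 cores, Npas4, Rgs2 and Fos 2, Fosb and Junb 1, and Gadd45b 0. These counts include annotated exon bases, as in all of the Npas4 window. In Nr4a3, 152 bases of the window were exonic, with the core at 147 bases before the start among them. The full element TGACGTCA, which contains the core on both strands, was in 0 of the 9 windows, in 1.55% of all windows and in 2.68% of the GC-rich ones. A TATAAA match on either strand was in the windows of Nr4a2, Fos and Gadd45b. Such a match was in 12.4% of all windows and in 2.91% of those with a GC content of at least 58.4%. It lay 33 bases before the start in Fos and 46 in Gadd45b. In Nr4a2 it lay on the opposite strand, 164 bases before the start. The CArG box, searched by name on both strands, was in 0 of the 9, in 1.47% of all and in 0.965% of the GC-rich ones, with the stretches farther upstream not searched. These matches are letters in a window and say nothing of binding.

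Different patterns of level were seen among the 10 genes. Npas4, Rgs2 and Gadd45b were higher in every KO library than in any control, with mean levels 7.47, 2.79 and 2.27 times those of controls. Fos, Fosb, Junb and Egr1 moved together from library to library, highest in KO 1 and lowest in KO 2, and their groups overlapped. The NR4A receptors did not move as a family.

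Npas4 (ENSMUSG00000045903.9, chromosome 19, 4984355 to 4990316, GRCm38) encodes a transcription factor that in neurons is induced by calcium entry with little response to growth factors. It had 86, 44 and 49 counts in KO 1, 2 and 3, against 5, 2 and 17 in controls 1, 2 and 3. As levels these were 3.44, 2.74 and 1.86 CPM in KO and 0.401, 0.117 and 0.560 CPM in controls. The lowest KO library lay above the highest control, and no library passed 3.44 CPM. The log2 fold change was 2.77 (SE 0.44), and it ran from 2.40 to 3.45 with 1 library left out. The control value rests on 24 counts in all, against 179 in KO, so its relative counting error is large.

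Rgs2 (ENSMUSG00000026360.9, chromosome 1, 143999338 to 144004161) encodes a GTPase-activating protein that shortens signalling by Gq. Its levels were 46.3, 65.1 and 76.3 CPM in KO 1, 2 and 3, against 14.0, 20.2 and 33.1 CPM in controls 1, 2 and 3. All KO libraries lay above all controls, while the controls themselves spread 2.36-fold. The log2 fold change was 1.45 (SE 0.28), and 1.05 (SE 0.46) with the level of the ribosomal RNA locus as a covariate.

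Gadd45b (ENSMUSG00000015312.9, chromosome 10, 80930073 to 80932204) encodes a stress- and growth-arrest-inducible protein that acts on MAP kinase signalling and, in neurons, on DNA demethylation. It stood at 9.33, 13.3 and 11.9 CPM in KO 1, 2 and 3, against 4.49, 4.49 and 6.26 CPM in controls 1, 2 and 3. The groups again did not overlap, and levels varied 1.43-fold among KO libraries and 1.40-fold among controls. The log2 fold change was 1.15 (SE 0.19), and 0.83 (SE 0.29) with the ribosomal RNA covariate.

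**Figure D1:**
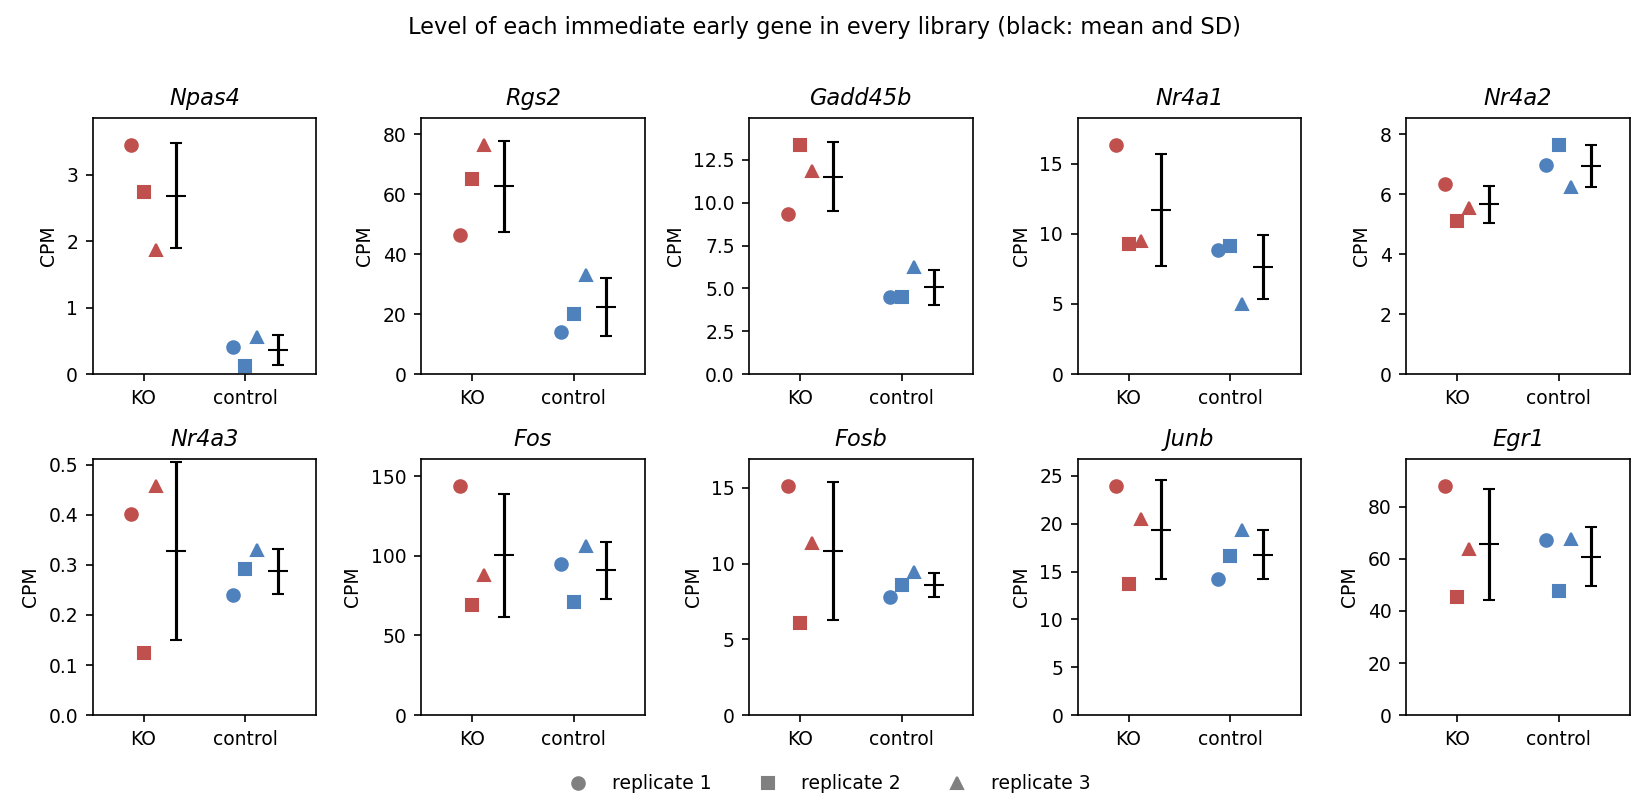
Level in CPM, scaled by TMM factors, of each of the 10 genes in the 3 KO (red) and 3 control (blue) libraries; each panel has its own axis from 0, and black marks give the mean and SD (n = 3). Npas4, Rgs2 and Gadd45b show separate groups, while Fos, Fosb, Junb and Egr1 have KO 1 at the top and KO 2 at the bottom.

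Fos (ENSMUSG00000021250.13, chromosome 12, 85473890 to 85477273) encodes a subunit of the AP-1 transcription factor and is the textbook marker of recent stimulation. Its levels were 144, 69.2 and 88.0 CPM in KO 1, 2 and 3, against 95.0, 71.3 and 106 CPM in controls 1, 2 and 3. The groups overlapped throughout, with the highest and the lowest library both labelled KO. The log2 fold change was 0.14 (SE 0.25). It was -0.21 without KO 1, -0.004 without control 2, 0.35 without KO 2 and 0.64 (SE 0.31) with the ribosomal RNA covariate.

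Egr1 (ENSMUSG00000038418.7, chromosome 18, 34859823 to 34864984) encodes a zinc finger factor induced by MAP kinase signalling. It ranged the libraries in the same order as Fos, with 87.8, 45.4 and 63.6 CPM in KO and 67.1, 47.8 and 67.6 CPM in controls. For every 1000 Fos counts a library held 612 to 723 Egr1 counts in KO and 637 to 707 in controls. Among the KO libraries alone, Fos varied 2.08-fold and Egr1 1.94-fold, so their ratio varied less than either gene. The log2 fold change of Egr1 was 0.11 (SE 0.22), with -0.16 without KO 1, -0.04 without control 2, 0.31 without KO 2 and 0.45 (SE 0.32) with the ribosomal RNA covariate.

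Fosb (ENSMUSG00000003545.3, chromosome 7, 19302696 to 19310051), a second FOS subunit of AP-1, stood at 15.1, 6.05 and 11.4 CPM in KO 1, 2 and 3, against 7.78, 8.56 and 9.42 CPM in controls 1, 2 and 3. Junb (ENSMUSG00000052837.7, chromosome 8, 84976910 to 84978718), a partner of the FOS proteins, stood at 23.9, 13.7 and 20.5 CPM in KO, against 14.3, 16.7 and 19.4 CPM in controls. In both genes KO 1 and KO 3 lay above all controls and KO 2 below all of them. Their log2 fold changes were 0.34 (SE 0.27) for Fosb and 0.20 (SE 0.19) for Junb. Without KO 1 Fosb was at 0.03 and Junb at 0.03, and without KO 2 Fosb was at 0.61 and Junb at 0.39.

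Nr4a1 (ENSMUSG00000023034.7, chromosome 15, 101254269 to 101274795), Nr4a2 (ENSMUSG00000026826.13, chromosome 2, 57106830 to 57124003) and Nr4a3 (ENSMUSG00000028341.9, chromosome 4, 48045153 to 48086447) encode orphan nuclear receptors that are controlled mainly by how much of them is made. Nr4a1 had 16.3, 9.23 and 9.51 CPM in KO 1, 2 and 3, against 8.82, 9.09 and 4.98 CPM in controls 1, 2 and 3. These groups did not overlap, but KO 2 lay barely above control 2, and with counts scaled by library total alone the order of the 2 turned round, at 8.11 CPM in KO 2 and 9.59 CPM in control 2. The log2 fold change was 0.65 (SE 0.28), and 0.32 without KO 1, 0.39 without control 3 and 1.19 (SE 0.36) with the ribosomal RNA covariate.

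Nr4a2 ran the other way, with 6.33, 5.11 and 5.56 CPM in KO 1, 2 and 3, against 6.98, 7.63 and 6.23 CPM in controls 1, 2 and 3. KO 1 lay above control 3, so the groups overlapped, and the log2 fold change was -0.28 (SE 0.15). Nr4a3 had 10, 2 and 12 counts in KO and 3, 5 and 10 in controls, too few to pass the count filter, and is the 1 gene of the 10 that was not tested. Nr4a1 made up 70.8, 63.8 and 61.3% of the counts of the 3 receptors in KO 1, 2 and 3, against 55.0, 53.4 and 43.1% in controls.

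None of the 9 tested genes passed an adjusted p threshold of 0.05 in edgeR's quasi-likelihood test, which called 0.0704% of all 14212 tested genes, 0.00704% higher in KO and 0.0633% lower. At an unadjusted p under 0.05 there were 4, with 7.37% of all tested genes, and 4.83% of all counted as higher. DESeq2 called 3 of the 9, Npas4, Rgs2 and Gadd45b, with 0.338% of tested genes called, and edgeR without the count filter called these and Nr4a1, with 1.14% called. Of the 9, 8 had a positive log2 fold change, where 47.8% of all tested genes did, and the median was 0.34 against -0.01 for all. Levels were higher in KO without overlap in 4 of the 9 and in 7.94% of all tested genes, and lower without overlap in 0 of the 9 and in 5.94% of all. Since the genes were picked with this contrast in view, nothing is read from these counts.

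**Figure D2:**
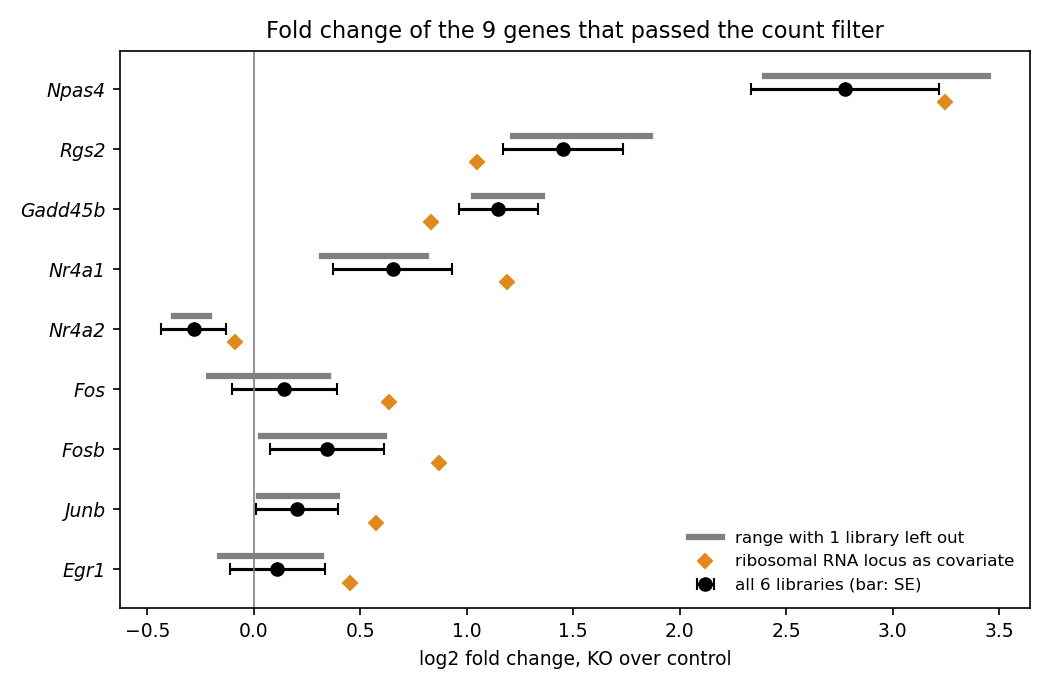
Log2 fold change, KO over control, of the 9 genes that passed the count filter: black points with SE bars use all 6 libraries, gray bars span the values with 1 library left out, and orange diamonds have the ribosomal RNA locus as a covariate. Npas4, Rgs2 and Gadd45b stay at or above 0.83 under each of these, while the gray bars of Fos and Egr1 cross 0.

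Genes of the group were also set against the Fos counts of their own library, a ratio that does not depend on how libraries are scaled. It does depend on Fos, which was lowest in KO 2 at 69.2 CPM and nearly as low in control 2 at 71.3, so their ratios are raised. Fos was highest in KO 1 at 144 CPM, so the ratios of KO 1 are lowered. The ratios use the same counts on which the genes were picked, so they add no support. For every 1000 Fos counts there were 24.0, 39.7 and 21.2 Npas4 counts in KO 1, 2 and 3, against 4.22, 1.64 and 5.27 in controls 1, 2 and 3. For Rgs2 there were 322.5, 940.5 and 867 in KO, against 148, 283 and 312 in controls, so that KO 1 and control 3 were close. Gadd45b had 65.0, 193 and 135 in KO, against 47.3, 63.0 and 59.0 in controls, with KO 1 just above control 2. The KO libraries lay above all controls in these 3 ratios. For Nr4a1 the groups overlapped, with 113.6, 133.5 and 108.1 in KO 1, 2 and 3, against 92.9, 127.6 and 46.9 in controls 1, 2 and 3. The ratios of Egr1, Junb and Fosb overlapped as well.

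Profiles over the 6 libraries were compared as log2 CPM minus each gene's own mean. The closest pair among the 9 genes was Fos and Egr1, with a root mean square difference of 0.08, and the next were Fosb and Junb at 0.16. All 6 pairs among Fos, Fosb, Junb and Egr1 came before any other pair, with Rgs2 and Gadd45b next at 0.32. The mean deviation of Fos, Fosb, Junb and Egr1 was 0.57, -0.46 and 0.12 in KO 1, 2 and 3, against -0.10, -0.24 and 0.12 in controls 1, 2 and 3. That of Npas4, Rgs2 and Gadd45b was 0.86, 1.08 and 0.92 in KO, against -1.08, -1.44 and -0.35 in controls. The groups of genes were named after these values were seen.

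**Figure D3:**
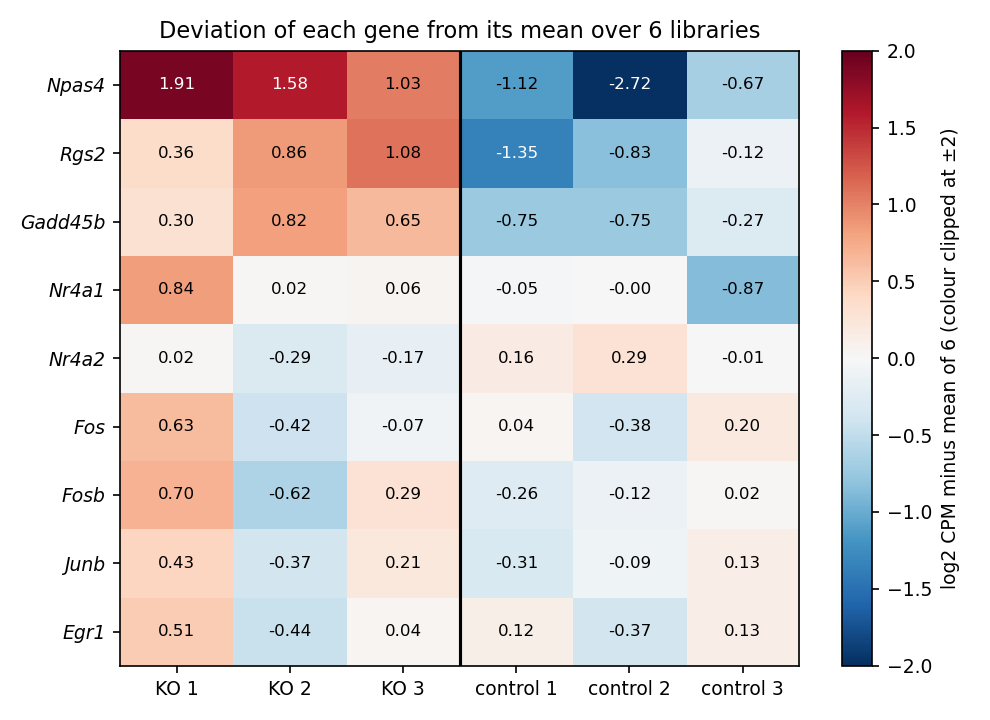
Deviation of each gene's log2 CPM from its mean over the 6 libraries, KO at left and control at right of the line. The rows of Fos, Fosb, Junb and Egr1 share KO 1 as the highest library and KO 2 as the lowest, and the rows of Npas4, Rgs2 and Gadd45b are positive in all KO libraries and negative in all controls.

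KO 2, where the 4 AP-1 and EGR genes were lowest, was also the library with the lowest endothelial and fibroblast marker sums, as given above. In bulk islets, fewer cells of a type and less RNA per cell cannot be told apart, and the part of these cells in the AP-1 and EGR levels was not tested. Within KO, the order of the libraries by Rgs2 level was also their order by ribosomal RNA share. Npas4 ran in the reverse order within KO, and Gadd45b was highest in KO 2. Within controls the Rgs2 order was not that of the share, since control 2 had the lowest share and control 1 the lowest Rgs2 level. Every KO library had a larger share than any control, with KO 1 closest at 5.36% against 3.32 to 4.51% in controls. Every KO library also held more Npas4, Rgs2 and Gadd45b than any control. The values with the covariate therefore cannot separate the part of this share in the levels from that of genotype. That part was not tested. Acinar markers took 25.0, 22.8 and 13.9% of counts in KO 1, 2 and 3, against 32.1, 25.0 and 18.1% in controls. Within both groups, Rgs2 was thus higher where the acinar share was lower. Npas4 and Gadd45b did not have this order within KO. With the acinar covariate the log2 fold change of Rgs2 was 1.37 (SE 0.15). The part of exocrine RNA in its level was not tested.

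**Figure D4:**
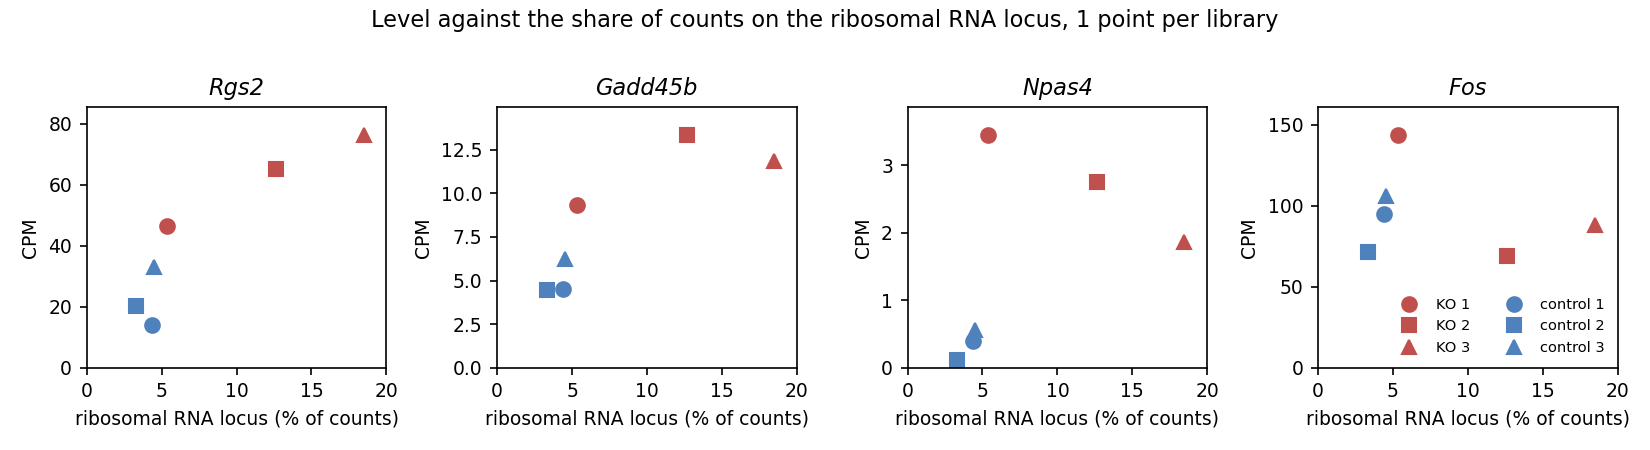
Level in CPM of Rgs2, Gadd45b, Npas4 and Fos against the percentage of a library's counts on the ribosomal RNA locus, 1 point per library (KO red, control blue). All KO libraries lie to the right of all controls, KO 1 closest at 5.36%, and above them for Rgs2, Gadd45b and Npas4.

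Between genes, levels were compared per kilobase of exon (RPKM from the scaled CPM). Fos was the highest of the 10, at 42.6 ± 16.5 RPKM in KO and 38.6 ± 7.6 in controls (SD, n = 3 each). In KO it was followed by Rgs2 at 17.2 ± 4.2, Egr1 at 14.6 ± 4.8 and Junb at 10.7 ± 2.9, whose SD ranges overlapped. In controls the order was Egr1 at 13.6 ± 2.5, Junb at 9.28 ± 1.42 and Rgs2 at 6.18 ± 2.69. Gadd45b came next in both groups, at 7.25 ± 1.28 RPKM in KO and 3.20 ± 0.64 in controls. Nr4a1, Nr4a2 and Fosb lay between 1.38 and 3.33 RPKM on average in either group. Npas4 averaged 0.649 ± 0.192 RPKM in KO and 0.0868 ± 0.0543 in controls, and Nr4a3 averaged 0.0547 ± 0.0297 RPKM in KO and 0.0480 ± 0.0074 in controls. In controls, Fos was above 96.55% of all tested genes and Npas4 above 1.27%.

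Spread within groups was wide for most of these genes. The within-group SD of log2 CPM had a median of 0.43 over the 9 genes and of 0.18 over all tested genes. It was largest for Npas4 at 0.83, where low counts add to it, and then for Rgs2 at 0.51, Fosb at 0.49, Nr4a1 at 0.47 and Fos at 0.43. Nr4a2, at 0.15, was the 1 gene of the 9 below the median of all genes. Of all tested genes, 85.7% had a smaller SD than Fos and 37.8% a smaller SD than Nr4a2.

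A list of other immediate early genes was described in the same way. Of the 49 tested of 57 listed, 28 had positive and 21 negative log2 fold changes, 0 were called by edgeR in either direction, and the median was 0.05. At an unadjusted p under 0.05 there were 8 with positive and 2 with negative values, where 7.37% of all tested genes were in either direction and 4.83% positive. DESeq2 called 1, Plk3, with 0.338% of all tested genes. Values ran from -1.13 to 1.11. The groups did not overlap in 6 of the 49, 3 higher and 3 lower, where 13.9% of all tested genes did not overlap. Above the level floor of the naming rule (mean log2 CPM 1), the largest values belonged to Cish, a cytokine signalling inhibitor (1.11, SE 0.47), Plk3, a stress-responsive kinase (-0.77, SE 0.14), Arl4d, a small GTPase (0.65, SE 0.23), and Id2, an inhibitor of basic helix-loop-helix factors (-0.55, SE 0.16).

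Cish had 5.57, 9.98 and 25.1 CPM in KO 1, 2 and 3, against 5.54, 5.07 and 7.97 CPM in controls, so its value leaned on KO 3. Plk3 had 11.3, 9.11 and 8.71 CPM in KO, against 18.4, 17.0 and 14.8 CPM in controls, with no overlap. Chosen after its values were seen, Jun, the common partner of Fos, stood at 61.1, 34.4 and 46.9 CPM in KO 1, 2 and 3, against 57.0, 48.5 and 41.8 CPM in controls (log2 fold change -0.04, SE 0.19). Jun thus had the same highest and lowest libraries as Fos, Fosb, Junb and Egr1. KO 2 was the lowest library for 15 of the 49 genes and KO 1 for 1. The highest library was KO 3 for 14 genes, and KO 1 and control 1 for 11 each, so the list did not share KO 1 as its usual highest.

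Genes that in neurons and endocrine cells follow activity later had 9 positive and 17 negative values among 26 tested, with 0 called by edgeR or DESeq2 and a median of -0.07. At an unadjusted p under 0.05 edgeR had 2 in each direction, with 7.37% of all tested genes in either. Irs2, an insulin receptor substrate, had 29.8, 33.4 and 46.6 CPM in KO 1, 2 and 3, against 21.4, 20.8 and 27.0 CPM in controls (0.66, SE 0.17). Lingo1 (-0.43, SE 0.17), Inhba, a subunit of activin (-0.42, SE 0.33), and Rgs16, another GTPase-activating protein (0.40, SE 0.14), were the other 3 by the rule.

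Relatives and partners of the 10 genes (other AP-1, EGR, RGS and GADD45 genes and the dimer partners of NPAS4 and the NR4A receptors) had 10 positive and 16 negative values among 26 tested, with 0 called by either tool, 1 at an unadjusted p under 0.05 (7.37% of all tested genes) and a median of -0.03. The largest were Rgs16 at 0.40, Fosl2, a FOS relative, at 0.36 (SE 0.21), Rgs3 at -0.24 (SE 0.13) and Rgs19 at -0.23 (SE 0.27). Signalling genes that lead to them (CREB, CRTC, SRF, MEF2, NFAT, calmodulin, kinases and adenylyl cyclases) had 39 positive and 23 negative values among 62 tested, with 0 called by either tool, 7 of 62 at an unadjusted p under 0.05, all positive (4.83% of all tested genes had this), and a median of 0.06. Crebbp, the coactivator of CREB, had 41.9, 54.6 and 83.1 CPM in KO 1, 2 and 3, against 39.9, 33.0 and 40.8 CPM in controls (0.66, SE 0.22), in the order of the ribosomal RNA share within KO. Hdac4 (0.50, SE 0.18), Elk4 (0.50, SE 0.20) and Mrtfb (0.42, SE 0.12), all regulators of SRF- or MEF2-driven transcription, had the next largest values.

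Genes that respond to heat shock and tissue handling were described as well, and what set their levels here was not tested. Of 16 tested, 6 had positive and 10 negative values, with 0 called by edgeR and a median of -0.06. At an unadjusted p under 0.05 there were 4 positive and 3 negative, where 7.37% of all tested genes were in either direction. DESeq2 called 1, Dnajb1, with 0.338% of all tested genes. Dnajb1, a chaperone of the heat shock response, had 33.1, 29.9 and 28.3 CPM in KO 1, 2 and 3, against 17.3, 19.4 and 22.2 CPM in controls (0.62, SE 0.11), with no overlap. Hspa1a (0.74, SE 0.33) and Hspa1b (0.68, SE 0.30) are near-identical genes of inducible HSP70, so their split of reads is uncertain. Hspa1a averaged 3.72 ± 0.80 CPM in KO and 2.12 ± 1.04 in controls (SD, n = 3 each). Hmox1, heme oxygenase, had 2.60, 2.99 and 2.21 CPM in KO 1, 2 and 3, against 3.69, 3.96 and 4.12 CPM in controls (-0.61, SE 0.19), lower without overlap. In all, 3 of the 16 were higher and 4 lower without overlap, where 7.94% of all tested genes were higher and 5.94% lower. The part of tissue handling in the levels of Npas4, Rgs2 and Gadd45b was not tested.

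**Figure D5:**
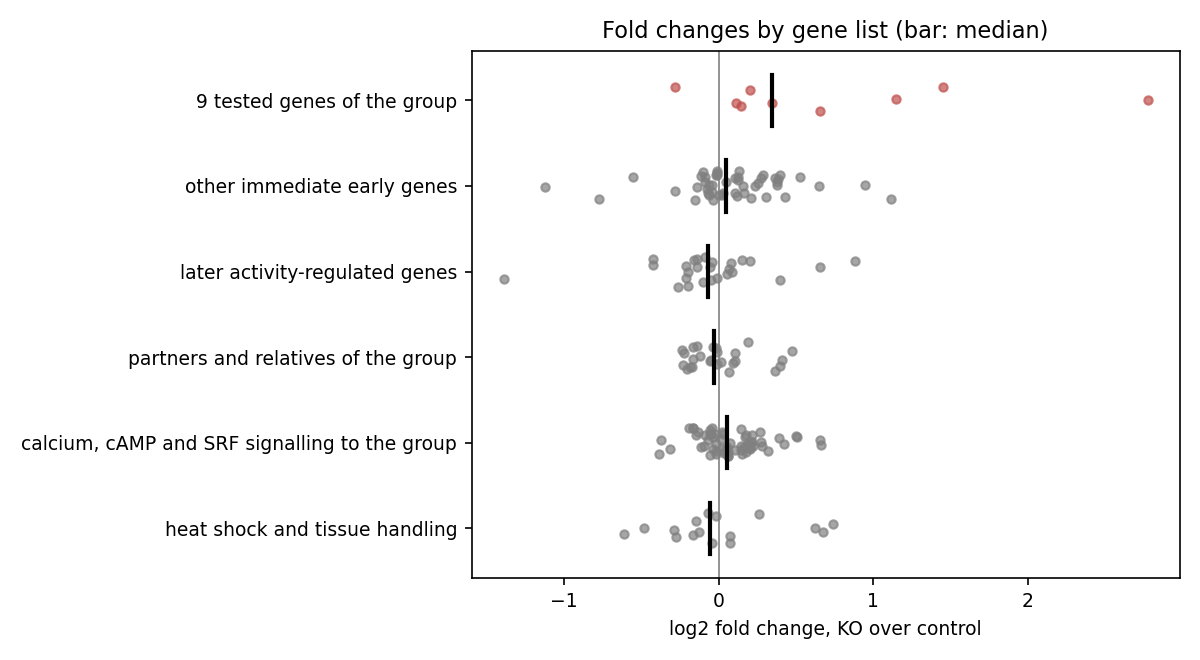
Log2 fold change, KO over control, of every tested gene in the group (red) and in 5 lists (gray), with the median of each as a black bar. The median is 0.34 for the 9 tested genes of the group and between -0.07 and 0.06 for the lists.

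The genes whose profile over the 6 libraries was most like the mean profile of the 9, among 11661 others compared, were Lancl3, Slc19a2, a thiamine transporter, Cdk5rap1, Nfil3, a basic leucine zipper repressor, and Dnajb1. Their root mean square differences from it ran from 0.13 to 0.16 on the log2 scale. They are named for likeness alone, over 6 libraries.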

How the data were processed

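The authors deposited raw read counts per gene, summed over exons, for 6 islet libraries. The submitters' processing notes list STAR 2.7.9, featureCounts 2.0.0, GRCm38.p6 and mm10; the annotation release, strand setting and treatment of multi-mapping reads are not given there. The span of no other annotated gene overlapped any of the 10. The column names of the KO libraries, and of no control, end in a suffix that no label accounts for, so whatever it marks cannot be told apart from genotype. No label spells out that each replicate number is a separate animal, so p-values cover the spread between libraries. Within groups, chi-square per degree of freedom between libraries ran from 43.3 (controls 2 and 3) to 249 (KO 1 and 3). Libraries of a group thus differed beyond counting error, and whether this spread is between animals or technical was not tested.

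Symbols came from a gene name table (55141 of 55401 identifiers matched). edgeR 4.0.16 (R 4.3.3; quasi-likelihood test, TMM, genotype only) was fitted to the 14212 genes kept by filterByExpr (minimum count 10, total 15), with Benjamini-Hochberg adjustment over all of them. SE is the log2 fold change divided by the root of the F statistic. Profiles used log2 CPM with a prior count of 0.5, and RPKM the deposited exonic lengths. Genes named outside the 10 were those with the 4 largest absolute fold changes per list at a mean log2 CPM of at least 1, any called gene, and the 5 nearest profiles. The members, lists and tests were chosen with earlier results of these data known. Alternatives were RLE normalization, no filter, DESeq2 1.42.0, a block for replicate number, omission of single libraries, and a ribosomal RNA or acinar covariate; scaling by total counts was added after seeing the data. The fitting code was tested on simulated data.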

Additional observations from a re-analysis of the deposited data

How the results depend on the processing

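The number of genes called over all tested was 10, and 10 with RLE normalization. It was 300 without the filter on low counts (1.14% of those tested), 48 with DESeq2, 48 with the acinar covariate (0.338% called, with Npas4, Rgs2 and Gadd45b among them), 0 with the ribosomal RNA covariate, and between 2 and 6 when single libraries were omitted. With the replicate number as a block it was 36 (0.253% called), with Rgs2 and Gadd45b among them. Same-numbered libraries correlated at 0.14, -0.13 and 0.14 in their deviations from group means, and not every library correlated best with its own number, so the numbers were not taken as pairs. The median log2 fold change of the 9 genes, 0.34, was 0.83 with the ribosomal RNA covariate, and ran from 0.032 without KO 1 to 0.611 without KO 2. The cause was not tested, and the ribosomal RNA share was larger in every KO library than in any control. With that covariate Fos stood at 0.64, Fosb at 0.87, Junb at 0.57 and Nr4a2 at -0.09. Npas4, Rgs2, Nr4a1, Fosb, Junb and Gadd45b had positive values and Nr4a2 negative values in all 12 alternatives, and Fos and Egr1 positive values in 10. The median of the other immediate early genes was -0.022 without KO 1 and 0.158 without KO 2. The number of the group's genes higher in KO without overlap, 4, was 3 with CPM of total counts, and 6 without KO 2, where Fosb and Junb were added. Precision is limited by 3 libraries per group and by the 24 Npas4 counts in controls.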
